A study of Mus musculus with 12 samples.

Results

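Gene expression in the cerebellum of Npc1 null mice was compared with that of wild-type mice at postnatal day 49 (P49). The 3 null and 3 wild-type arrays were taken by their genotype and time point labels and make up 6 of the 12 arrays of the series; the other 6 hold the same genotypes at P21. All mice carried the strain label BALB/c Npc1, and the groups were Npc1-/- (null) and Npc1+/+ (wild type), kept on a standard chow diet with no treatment named. Each array measured total RNA from the cerebellum of 1 animal. The labels do not name the Npc1 allele, and they do not say whether the groups were littermates. Null replicate 1 is labelled male and the other 5 animals female. A protocol text repeated for the animals names P21 as the age at death, in conflict with the P49 labels, which were used for the age of these groups and for every change with age below. The weight below lies on genes outside the largest microglial and Purkinje cell changes, that is, outside a list of 144 markers of microglia and phagocytes and a list of 64 Purkinje cell markers.

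NPC1 is a membrane protein of late endosomes and lysosomes that passes cholesterol from the lumen toward the rest of the cell, and it receives this cholesterol from the soluble protein NPC2. Without it, unesterified cholesterol and sphingolipids build up in the endolysosomal system of most cells. The cerebellum is known for the loss of Purkinje cells in this disease, together with activation of microglia and astrocytes.

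Values are log2 intensities, log2(intensity + 16), after quantile normalisation, and a difference is the null mean minus the wild-type mean with its standard error, each from 3 animals per group. A gene is called, and said to rise or fall, when its Benjamini-Hochberg adjusted p in limma was at most 0.05 over the 7835 genes tested. A gene "passed in every fit" when it was called with all arrays and again in each of 12 fits that left out 1 array. Those fits normalised the remaining arrays anew but kept the genes and probe sets chosen on all arrays. The genes tested were those with a mean over the 12 arrays at or above a log2 level of 9.93, and a group mean below that level leaves the size of a change uncertain. Probe sets differ in brightness for reasons other than RNA, so levels are compared between arrays and never between genes. In RNA from whole tissue, fewer cells of a type and less RNA per cell cannot be told apart.

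Facts that bear on the arrays as a whole are few. Npc1 had values of 11.35, 11.57 and 11.75 in wild type and of 10.53, 9.96 and 9.88 in null animals. All null values lay below all wild-type values, and the difference of -1.43 ± 0.37 was not called (limma adjusted p = 0.0591); whether the probe set lies in an altered part of the transcript is not given in the labels. Xist, the RNA of the inactive X chromosome, lay between 15.61 and 15.86 on all 6 arrays, including the one labelled male. All 24 granule neuron markers with a probe set were above the filter. On 3 P21 arrays, wild-type replicate 2 and null replicates 2 and 3, Xist and the Y-linked genes went against the female label. These arrays enter the P49 comparison through the normalisation, the filter and the estimate of the spread. A fit without them in the normalisation and the spread called all 208 genes again. Its filter was kept from all 12 arrays, so their part in the filter was not tested. In that fit Npc1 was called as well, as lower in null animals.

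At P49, 119 genes rose in null cerebellum, 1.52% of those tested, and 89 fell, 1.14%. Together these were 208 genes or 2.65%, and 887 genes had an unadjusted p under 0.05. The groups did not overlap for any of the 208, against 1819 genes or 23.2% of all tested. The microglia and phagocyte list held 33 of the rises and the Purkinje cell list 28 of the falls, which leaves 86 rises and 61 falls among 7744 tested genes outside both lists. In all, 102 genes (1.3%) passed in every fit, and 63 of them, 44 higher and 19 lower, lay outside both lists. The median difference over all genes was -0.02, and the smallest called difference was 0.38 in size. Without null P49 replicate 3 the counts were 71 higher and 35 lower, and without null P49 replicate 2 they were 75 and 38. Leaving out wild-type P49 replicate 1, 2 or 3 gave 42, 44 or 52 falls. Without null P21 replicate 2 there were 191 rises.

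A group of lysosomal genes rose in null cerebellum. Of 88 tested genes for lysosomal proteases, hydrolases and membrane or accessory proteins, 19 (21.6%) rose and none fell, 71 had a positive difference, and the median was 0.28. Of the 19, 12 passed in every fit, and 2 were also on the microglia and phagocyte list, Gusb and Cst3. The 12 were Ctsd, Ctsz, Ctsc, Ctsa, Ctsb, Lgmn, Grn, Npc2, Hexa, Gusb, Man2b1 and Pld3. Many lysosomal genes carry in their promoters the CLEAR element, which transcription factors of the TFEB family bind and whose core is an E-box with the letters CACGTG. RefSeq promoter windows of assembly GRCm38.p6, from 250 bases before to 50 bases after a gene start, were matched by symbol for 11 of the 12 genes; Ctsb was not matched. The core was found on both strands, being its own reverse complement, in 3 of these 11 genes (27.3%), namely Ctsd, Ctsa and Lgmn. The stretches that hold it, from 120 bases before the start through the first 20 bases of the gene, are shown 5′ to 3′ on the strand of the gene, with the core in capitals.
Ctsd: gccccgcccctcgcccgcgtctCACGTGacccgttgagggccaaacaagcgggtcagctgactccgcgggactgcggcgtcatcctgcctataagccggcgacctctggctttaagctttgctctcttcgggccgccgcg
Ctsa: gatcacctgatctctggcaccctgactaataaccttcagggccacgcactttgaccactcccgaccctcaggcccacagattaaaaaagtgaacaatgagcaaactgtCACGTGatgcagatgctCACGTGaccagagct
Lgmn: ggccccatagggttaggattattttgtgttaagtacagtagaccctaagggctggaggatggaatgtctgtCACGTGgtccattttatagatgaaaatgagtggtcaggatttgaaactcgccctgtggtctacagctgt
The Ctsd stretch is chr7:142387808-142387947 on the minus strand, that of Ctsa chr2:164833653-164833792 on the plus strand, and that of Lgmn chr12:102439073-102439212 on the minus strand. Counting the first base of the gene as 0, the core begins at -98 for Ctsd, at -12 and 5 for Ctsa, and at -49 for Lgmn. A further copy lies at -245 for Ctsd, outside the stretch shown. Ctsa and Lgmn each have a second RefSeq start whose window lacks the core.

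The core was present in the windows of 3 of 16 matched lysosomal genes called higher (18.8%) and of 17 of 55 tested and not called (30.9%), against 812 of 6401 matched genes among all tested (12.7%). The longer form TCACGTGA, which contains the core, was found in Ctsd and Ctsa, 2 of the 16 called genes (12.5%), in 6 of the 55 not called (10.9%) and in 151 of the 6401 (2.36%). Over all 32851 windows in the table the shares were 7.15% and 0.974%. These are matches of letters in a short window and do not show a binding site.

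Among the proteases, 9 of 17 tested genes rose, the median difference was 0.45, and 6 passed in every fit. Ctsd, the aspartic protease cathepsin D, read 13.79, 13.79 and 14.14 in wild type and 15.84, 16.07 and 15.96 in null animals. The null values stood well clear of the wild-type values, at a difference of 2.05 ± 0.12 (limma adjusted p = 1.87e-07). Ctsz, a carboxypeptidase, went from 13.49, 13.53 and 13.44 to 15.34, 15.41 and 15.19, with both groups tight, and rose by 1.82 ± 0.14 (adjusted p = 3.41e-06). Ctsc, the dipeptidyl peptidase that activates serine proteases of immune cells, had scattered wild-type values of 10.83, 10.37 and 9.66 and null values of 12.31, 12.25 and 12.23. Its rise was 1.98 ± 0.28 (adjusted p = 0.00103).

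Cathepsin A, encoded by Ctsa, also protects β-galactosidase and neuraminidase in the lysosome, and its values were 12.95, 13.07 and 13.13 in wild type and 13.87, 14.02 and 14.25 in null animals. The rise was 1.00 ± 0.11 (adjusted p = 0.000154). Lgmn, an asparaginyl endopeptidase, rose by 0.98 ± 0.14 (adjusted p = 0.00139). Ctsb, a cysteine protease, read 15.82, 15.83 and 15.77 in wild type and 16.48, 16.58 and 16.63 in null animals, a rise of 0.75 ± 0.08 (adjusted p = 7.1e-05). Further probe sets of Ctsb gave 0.37, 0.78 and 1.04, of which the first was not called. Cst3, the cystatin that inhibits cysteine proteases, rose by 0.52 ± 0.11 (adjusted p = 0.0193), Ctsh by 0.85 ± 0.19 (adjusted p = 0.0247) and Tpp1, a tripeptidyl peptidase, by 0.38 ± 0.09 (adjusted p = 0.0338). These last 3 were lost in some fits without 1 array, with the highest adjusted p at 0.121, 0.132 and 0.223.

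Of 36 hydrolases of glycans, lipids and nucleic acids, 7 rose, with a median of 0.29, and 4 remained without null P49 replicate 3. Hexa, the α-subunit of β-hexosaminidase, which degrades GM2 ganglioside, read 12.72, 12.60 and 12.73 in wild type and 13.74, 13.96 and 14.12 in null animals. It rose by 1.26 ± 0.14 (adjusted p = 0.000154). Gusb, β-glucuronidase, rose by 1.44 ± 0.18 (adjusted p = 0.000377) and the phospholipase D family member Pld3 by 1.40 ± 0.18 (adjusted p = 0.000468). Man2b1, the acid α-mannosidase, went from 12.11, 12.07 and 12.29 to 13.23, 13.69 and 13.67, a rise of 1.37 ± 0.17 (adjusted p = 0.00031). A further probe set of Man2b1 gave -0.04, so the gene's probe sets disagreed, and with probe sets averaged the call was lost (adjusted p = 0.0599). Lipa, the acid lipase that hydrolyses cholesteryl esters before NPC2 and NPC1 handle the sterol, rose by 0.96 ± 0.18 (adjusted p = 0.00716, and 0.0587 without null P49 replicate 3). The lysosomal phospholipase gene Pla2g15 rose by 0.76 ± 0.16 and the sulfatase gene Galns by 0.95 ± 0.20, with adjusted p of 0.0168 and 0.0189 that reached 0.102 and 0.142 without the same array. Further probe sets gave 0.65 and 0.62 for Lipa and 0.65 for Pla2g15, all uncalled.

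Membrane and accessory proteins of the lysosome moved less. Of 35 tested, 3 rose, with a median of 0.14. Npc2, the partner of NPC1 in cholesterol export, read 14.14, 14.04 and 14.10 in wild type and 14.99, 15.01 and 15.21 in null animals. Its rise was 0.98 ± 0.13 (adjusted p = 0.000435), with 1.09 in another probe set. Grn, which encodes progranulin, rose by 1.66 ± 0.13 in the probe set used and by 1.54 and 1.87 in the other probe sets. Scarb2, the membrane receptor that carries glucocerebrosidase to lysosomes, rose by 0.47 ± 0.09 (adjusted p = 0.0108, and 0.0832 without null P49 replicate 2).

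The proton pump and the autophagy machinery had no called gene. None of 17 V-ATPase subunit genes was called, their differences ran from -0.14 to 0.42, and the median was 0.03. None of 33 autophagy and TFEB family genes was called, with differences from -0.47 to 0.42 and a median of 0.01. The smallest p in the first list was that of Atp6v0e, at 0.42 ± 0.17 (adjusted p = 0.323), and in the second that of the transcription factor Mitf, at 0.42 ± 0.17 (adjusted p = 0.352). Differences of this size were under or near the smallest that was called, 0.38.

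**Figure D1:**
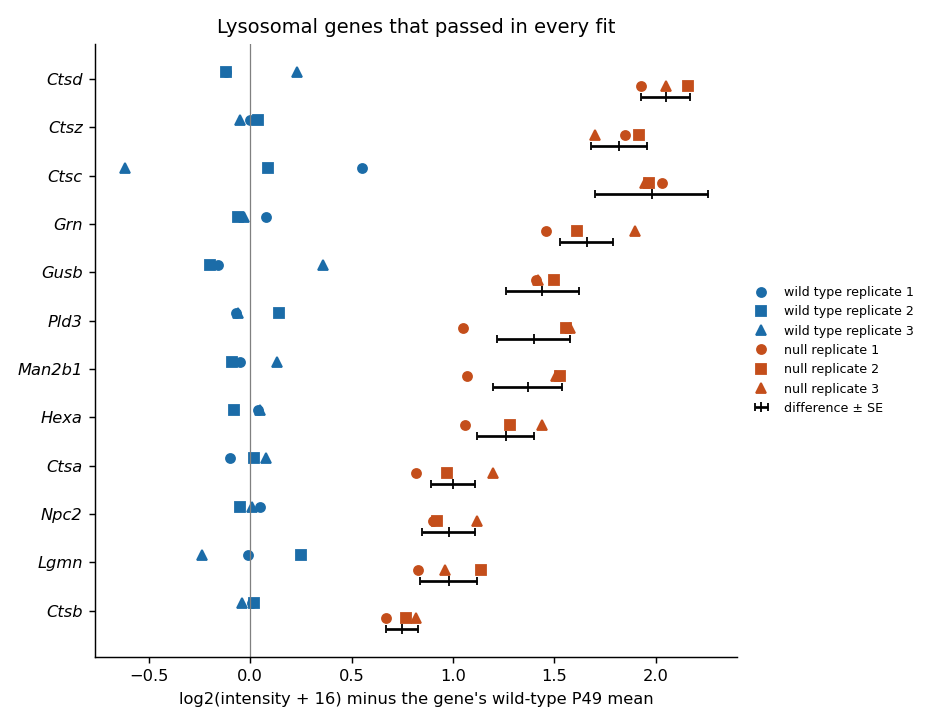
Each row is 1 of the 12 lysosomal genes that passed in every fit, with log2(intensity + 16) on the horizontal axis relative to the gene's wild-type P49 mean. Blue and orange symbols are single wild-type and null animals (circle, square and triangle for replicates 1, 2 and 3), and the black bar is the difference ± SE from limma. The null values of every gene lie to the right of all its wild-type values, by 0.75 on average for Ctsb and 2.05 for Ctsd.

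Among genes of lipid handling, sterol synthesis had no call and sterol efflux had 3 rises. None of 23 tested genes of cholesterol synthesis was called. Their median was -0.09, and the smallest p-values belonged to Srebf1 at 0.45 ± 0.16 (adjusted p = 0.247) and Idi1, isopentenyl diphosphate isomerase, at -0.51 ± 0.19 (adjusted p = 0.26). Of 25 genes of sterol efflux and lipoproteins 3 rose, with a median of 0.16: Apoe, Abca1 and Apoc1, which is on the microglial list as well. Apoe, the main apolipoprotein of the brain, read 16.48, 16.14 and 16.29 in wild type and 17.09, 17.18 and 17.21 in null animals, a rise of 0.85 ± 0.13 (adjusted p = 0.00135), and it was the member that passed in every fit. Without null P49 replicate 3 it was the 1 member called, and without null P21 replicate 2 the list had 5 calls.

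Fabp5, a fatty acid binding protein, was the 1 called gene of 35 in lipid metabolism (2.86%, near the 2.65% over all genes). It had values of 14.66, 14.59 and 14.66 in wild type and 15.41, 15.72 and 15.51 in null animals. The rise was 0.91 ± 0.12 (adjusted p = 0.000587), and a further probe set gave 1.13. Without null P21 replicate 2 the list had 4 rises.

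Of 25 genes of sphingolipid and ganglioside synthesis 1 fell and 1 rose, and 2 fell without null P21 replicate 1. B3gnt5, the transferase that begins the lacto and neolacto series of glycosphingolipids, read 12.27, 12.18 and 12.30 in wild type and 11.12, 10.33 and 10.51 in null animals. Null replicate 1 lay nearest to wild type, and the fall was 1.60 ± 0.19 on the log2 scale (adjusted p = 0.000254). Sgms1, a sphingomyelin synthase, rose by 0.73 ± 0.16 (adjusted p = 0.022), but not without null P49 replicate 1, 2 or 3 or wild-type P49 replicate 2 (up to 0.12), and another probe set read -0.13. Erg28, a scaffold of sterol synthesis enzymes that is on none of the lists and was named after its values were seen, fell by 0.76 ± 0.13 on the log2 scale (adjusted p = 0.00505). Its values were 14.06, 14.25 and 14.13 in wild type and 13.73, 13.22 and 13.22 in null animals.

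Among the genes outside both lists the largest rises that passed in every fit were those of Gfap, Gpx3, Th, Lgals3bp, Ctsd, Ctsc, Rnase4, Mdfic, Ctsz, Agt, Lgals1 and B2m. Gfap, the astrocyte intermediate filament, was the tightest of these in wild type, at 13.33, 13.34 and 13.35, and read 16.34, 16.78 and 16.81 in null animals. Its rise of 3.30 ± 0.17 (adjusted p = 5.82e-08) was joined by a further probe set at 3.70. Among these largest rises, Gpx3, Th and Mdfic passed the filter only through their null P49 arrays. Whether they were tested thus depended on the group where they are high.

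Th, tyrosine hydroxylase, makes the precursor of dopamine and noradrenaline, and in some ataxic mouse mutants it is known to be expressed in Purkinje cells. Its values were 9.90, 8.96 and 9.66 in wild type and 12.15, 12.47 and 12.53 in null animals. The groups were far apart, at 2.88 ± 0.38 (adjusted p = 0.000541), but the wild-type mean was below the level of the filter, so the size is uncertain. Its values on all P21 arrays were below that level too. No other member of the 7 tested genes of catecholamine synthesis and handling was called, and the list's median was -0.14.

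Gpx3, the secreted glutathione peroxidase, read 8.85, 8.82 and 9.08 in wild type and 11.72, 12.51 and 12.32 in null animals. Its rise of 3.26 ± 0.51 (adjusted p = 0.00211) also started from a wild-type mean below the level of the filter. Gpx8, a related peroxidase of the endoplasmic reticulum, had values of 9.83, 9.94 and 9.40 in wild type and 10.85, 10.87 and 11.02 in null animals, and rose by 1.19 ± 0.20 (adjusted p = 0.0041), again from a mean below that level. Mgst1, a microsomal glutathione transferase, rose by 0.49 ± 0.12 (adjusted p = 0.0478, and up to 0.264 without 1 array). These were the 3 rises among 41 antioxidant genes, whose median was 0.07. When the filter was set on the wild-type P49 arrays, 38 members were tested and 0 were called in limma.

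Rnase4, a secreted ribonuclease, read 10.34, 10.24 and 10.76 in wild type and 12.24, 12.51 and 12.53 in null animals. The difference was 1.98 ± 0.20 (adjusted p = 6.51e-05). Agt, angiotensinogen, which astrocytes of the brain produce, had 12.25, 12.35 and 12.76 in wild type and 13.72, 14.45 and 14.33 in null animals, and rose by 1.72 ± 0.25 (adjusted p = 0.00135). Mdfic, an inhibitor of MyoD family factors, rose by 1.95 ± 0.31 (adjusted p = 0.00239) from a wild-type mean below the level of the filter.

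Lgals1, galectin 1, had 12.57, 12.68 and 12.89 in wild type and 14.33, 14.46 and 14.47 in null animals. It rose by 1.71 ± 0.12 (adjusted p = 1.18e-06), with 1.94 in another probe set. Lgals9, galectin 9, rose by 1.17 ± 0.22 (adjusted p = 0.0073), with wild-type values of 10.26, 10.01 and 9.62 and null values of 11.28, 11.06 and 11.06. The galectin ligand Lgals3bp read 9.64, 10.21 and 9.86 in wild type and 12.23, 12.27 and 12.57 in null animals, and rose by 2.45 ± 0.36 (adjusted p = 0.00139) from a wild-type mean of 9.90, just below the level of the filter.

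**Figure D2:**
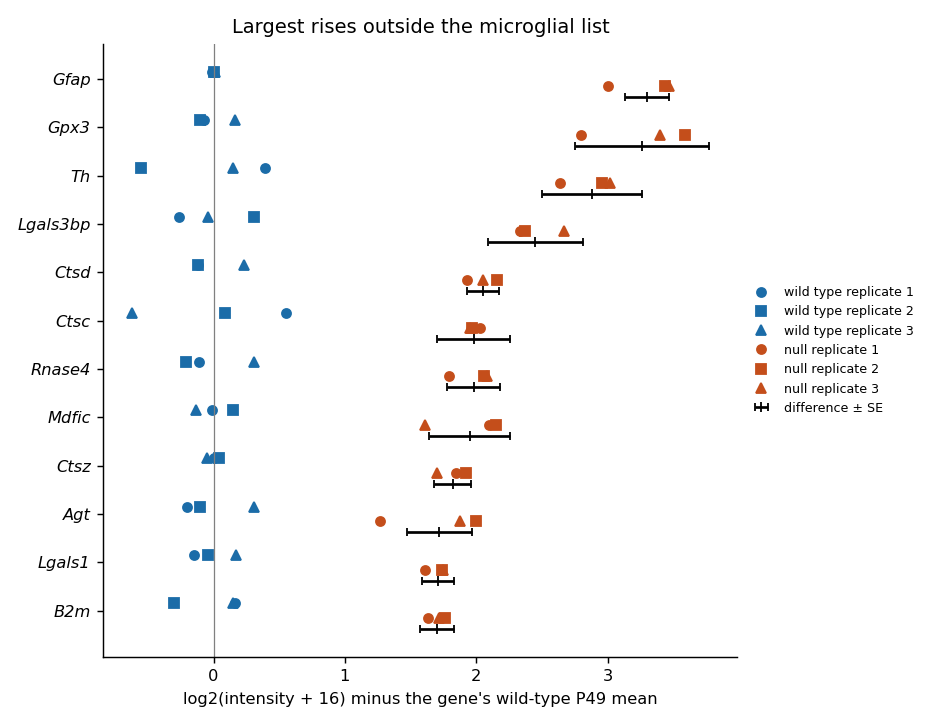
The 12 largest rises outside the microglial and Purkinje cell lists among genes that passed in every fit, drawn as log2(intensity + 16) of each P49 animal relative to the gene's wild-type mean, with the difference ± SE as a black bar. All null values (orange) lie above all wild-type values (blue), with differences from 1.70 for B2m to 3.30 for Gfap. Gpx3, Th and Mdfic passed the filter only through their null P49 arrays.

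The reactive astrocyte list had 5 rises and 2 falls among 17 tested genes, with a median of 0.48. The rises were Gfap, Vim, Cd44, Lgals1 and Cd14, of which microglia also express Cd14. The wild-type mean of Cd44 was below the level of the filter, which Cd44 passed only through its null P49 arrays. Vim, vimentin, read 14.84, 14.81 and 14.95 in wild type and 15.51, 16.17 and 16.07 in null animals (1.05 ± 0.17, adjusted p = 0.00288). The falls were B3gnt5 and the matrix gene Tnc, tenascin C, at -1.10 ± 0.24 (adjusted p = 0.0247, and up to 0.148 without 1 array). With the filter set on the wild-type P49 arrays 3 of 16 rose. The falls became 1 when null P49 replicate 2 or 3 or wild-type P49 replicate 1 or 2 was left out.

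Of 31 markers of resting astrocytes and Bergmann glia, 2 rose and 1 fell, with a median of 0.13. The water channel Aqp4 rose by 0.94 ± 0.13 (adjusted p = 0.000663), with 15.19, 15.18 and 15.09 in wild type and 15.82, 16.27 and 16.19 in null animals. Cst3 and Tnc were the other called members. The rises came to 1 without null P49 replicate 2 or 3 or any wild-type P49 array, to 4 without null P49 replicate 1 and to 6 without null P21 replicate 2. The single fall was lost without null P49 replicate 2 or 3 or wild-type P49 replicate 1 or 2.

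In the list of annexins and S100 proteins, calcium-binding proteins many of which glia express, 4 of 13 rose and the median was 0.56. S100a1 read 13.33, 13.35 and 13.45 in wild type and 14.10, 14.18 and 14.21 in null animals, with a rise of 0.79 ± 0.10 (adjusted p = 0.000587). S100a6 rose by 0.83 ± 0.17 (adjusted p = 0.0175), Anxa3 by 0.73 ± 0.17 (adjusted p = 0.037) and Anxa5 by 0.56 ± 0.13 (adjusted p = 0.039). S100a1 alone was called without null P49 replicate 2 or 3 or wild-type P49 replicate 1 or 2, and 2 members were called without wild-type P49 replicate 3 or wild-type P21 replicate 2.

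Other rises that passed in every fit belonged to no list and were named after their values were seen. Aldh1a1, a retinaldehyde dehydrogenase, rose by 0.72 ± 0.11 (adjusted p = 0.00228) and Fxyd1, a regulator of the sodium pump, by 0.78 ± 0.14 (adjusted p = 0.00565). The paired membrane genes Tmem176a and Tmem176b rose by 1.35 ± 0.21 and 0.93 ± 0.16 (adjusted p = 0.00207 and 0.00395). Dhrs1, a short-chain dehydrogenase, rose by 0.90 ± 0.13 (adjusted p = 0.000976), and Pros1, protein S, a ligand of the phagocytic receptors of the TAM family, by 1.16 ± 0.21 (adjusted p = 0.0068). Pros1 read 10.00, 9.42 and 10.05 in wild type, a mean below the level of the filter, and 10.87, 11.05 and 11.02 in null animals.

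Growth factor genes changed in both directions. Of 13 genes of the insulin-like growth factor system, 2 rose and 1 fell, with a median of 0.01. The growth factor Igf1 read 10.39, 10.53 and 10.94 in wild type and 11.74, 11.82 and 12.02 in null animals. It rose by 1.24 ± 0.20 (adjusted p = 0.00235). The binding protein gene Igfbp5 fell by 0.42 ± 0.10 on the log2 scale (adjusted p = 0.0396), a call lost without any single P49 array or wild-type P21 replicate 1 or 2 (up to 0.173). Its other probe set gave 0.20, and with probe sets averaged it was not called (adjusted p = 0.93).

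The binding protein gene Igfbp2 read 11.85, 11.79 and 12.08 in wild type and 13.85, 13.22 and 13.61 in null animals, and rose by 1.65 ± 0.30 (adjusted p = 0.0073, and 0.0463 without null P49 replicate 3). Choroid plexus and meninges are strong sources of Igfbp2, and most of their other markers had a higher mean in null arrays. All 15 choroid plexus markers with a probe set had positive differences, Igfbp2 among them, and 5 of these were above the filter. In 4 of the 15 all null values lay above all wild-type values. Over all genes tested, the groups did not overlap in either direction for 23.2%. The summed intensity of the 15 markers, in which the brightest member Ttr weighs most, was 42767, 30998 and 17145 in wild-type replicates 1 to 3. In null replicates 1 to 3 it was 249167, 93152 and 233728. Ttr, transthyretin, the most abundant product of choroid plexus, read 15.03, 14.36 and 12.76 in wild type and 17.61, 16.23 and 17.66 in null animals, a difference of 3.12 that was not called (adjusted p = 0.35). Null replicate 2 had the lowest value of the null arrays for both Ttr and Igfbp2.

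Of the meninges and fibroblast markers 21 of 22 had a higher mean in null arrays, and in 11 all null values lay above all wild-type values. Their summed intensity was 186841 to 216112 in wild type and 242442 to 259796 in null animals. Among 18 tested members, 2 rose, Igfbp2 and Fmod, and the median was 0.47. Fmod, the small matrix proteoglycan fibromodulin, read 11.49, 11.50 and 11.83 in wild type and 12.53, 13.16 and 13.36 in null animals, at 1.40 ± 0.30 (adjusted p = 0.0183, and 0.128 without null P49 replicate 3). Its further probe sets above the filter gave 1.08, 0.87 and 0.64 and were not called. Igf2, a growth factor of the same tissues, read 12.75, 12.59 and 13.03 in wild type and 13.95, 13.39 and 13.71 in null animals (0.89, adjusted p = 0.212). The rises in this list were 1 without null P49 replicate 2 or 3 or wild-type P49 replicate 1 or 2, and 4 without null P21 replicate 1. The part of neighbouring tissue in the rises of Igfbp2, Fmod and Gpx3 was not tested. Among the null arrays, replicate 2 had the lowest choroid plexus sum and the highest meninges and fibroblast sum. The Gpx3 value was highest and the Igfbp2 value lowest in replicate 2, while Fmod was highest in replicate 3. With 3 null arrays, this order was not tested.

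**Figure D3:**
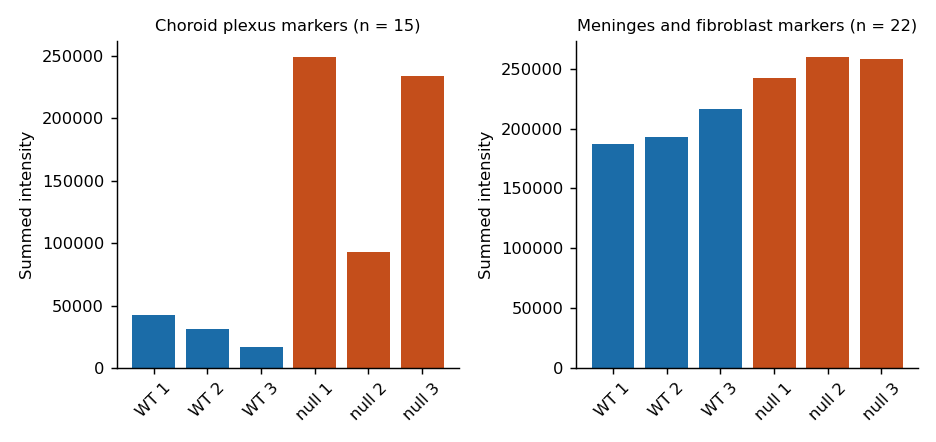
Bars give the summed linear intensity of 15 choroid plexus markers (left) and 22 meninges and fibroblast markers (right) on each P49 array, blue for wild type and orange for null. The choroid plexus sum ran from 17145 to 42767 in wild type and from 93152 to 249167 in null animals, with null replicate 2 the lowest of the null arrays.

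In the list of other growth factor and TGF-β genes, 4 of 40 rose and 2 fell, with a median of 0.09. The TGF-β receptor genes rose together: Tgfbr2 read 11.54, 11.08 and 11.03 in wild type and 12.41, 12.36 and 12.63 in null animals, a rise of 1.25 ± 0.16 (adjusted p = 0.000445), while its probe sets below the filter gave -1.04 and 1.85. Tgfbr1, which is also on the microglial list, read 11.41, 11.33 and 11.55 and then 12.42, 12.68 and 12.30, a rise of 1.04 ± 0.13 (adjusted p = 0.000468). Ntrk2, the BDNF receptor TrkB, rose by 0.56 ± 0.09 (adjusted p = 0.00207), but a further probe set gave -0.02 and the mean of its probe sets was not called (adjusted p = 0.795). The BMP target genes Id3 and Id2 went opposite ways. Id3 rose by 0.97 ± 0.20 (adjusted p = 0.0134, and up to 0.0887 without 1 array). Id2 fell from 14.93, 15.02 and 14.99 to 14.35, 14.34 and 14.28, or by 0.66 ± 0.10 on the log2 scale (adjusted p = 0.00139), although the mean of its probe sets was not called (adjusted p = 0.0959). The list's falls, Id2 and Fgf7, came to 1 without null P49 replicate 2 or 3 or wild-type P49 replicate 1 or 2.

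Immune genes other than the phagocyte markers rose in part. Of 14 interferon-response genes 5 rose, with a median of 0.61, and besides Lgals3bp and Lgals9 these were Ifi30, Ifitm3 and Ifitm2. Ifi30, the thiol reductase of the antigen-processing pathway, read 10.46, 10.46 and 10.68 in wild type and 11.47, 11.96 and 11.96 in null animals, and rose by 1.26 ± 0.20 (adjusted p = 0.0022). Ifitm3, an antiviral membrane protein, rose by 1.12 ± 0.19 (adjusted p = 0.00473), and Ifitm2, a close relative, by 0.75 ± 0.18 (adjusted p = 0.0435, and up to 0.195 without 1 array). In antigen presentation, 3 of 12 genes rose, B2m, Ifi30 and Ctss, the last of which is on the microglial list, and the median was 0.23. B2m, β2-microglobulin, which pairs with class I MHC chains, read 13.74, 13.28 and 13.73 in wild type and 15.21, 15.34 and 15.30 in null animals (1.70 ± 0.13, adjusted p = 3.41e-06).

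None of 16 chemokine and cytokine genes was called, although 15 had positive differences and the median was 0.38. Csf1, the growth factor of microglia, was nearest, with 10.47, 10.49 and 11.14 in wild type and 11.38, 11.96 and 12.14 in null animals (1.13 ± 0.30, adjusted p = 0.0746). Of 45 such genes with a probe set, these 16 were above the filter. None of 8 complement regulators was called, with Serping1, the C1 inhibitor, at 0.67 ± 0.24 (adjusted p = 0.226). Many of the microglia and phagocyte markers rose at P49. Of 46 tested, 33 rose, with a median of 1.40, and with the filter set on the wild-type P49 arrays 19 of 32 rose. Their summed intensity over 126 genes ran from 216493 to 230597 in wild type and from 558348 to 672268 in null animals. Their part in the rises of immune and lysosomal genes was not tested.

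Among 19 genes of iron and haem, 1 rose (5.26%, against 2.65% over all genes). This was the phagosomal metal transporter gene Slc11a1, at 1.12 ± 0.27 (adjusted p = 0.0408). That call was lost without any 1 of the P49 arrays or wild-type P21 replicate 3, and the gene is also on the microglial list. Its wild-type mean was below the level of the filter, which it passed only through its null P49 arrays.

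In adhesion and matrix the called genes were few. Cd9, a tetraspanin that is also on the microglial list, rose by 0.96 ± 0.12 (adjusted p = 0.000435), from 13.72, 13.53 and 13.68 to 14.51, 14.57 and 14.72. Vcam1, a vascular adhesion molecule, rose by 0.65 ± 0.15 (adjusted p = 0.035, up to 0.19 without 1 array and 0.263 with probe sets averaged). These were the 2 rises of 30 genes for adhesion and integrins (6.67%, against 2.65% over all genes), whose median was 0.07. Cd9 was the 1 remaining without any P49 null array or without wild-type P49 replicate 1 or 2, and there were 5 without null P21 replicate 2.

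Plek, pleckstrin, which is also on the microglial list, rose by 1.31 ± 0.19 (adjusted p = 0.000976). Msn, moesin, which links actin to the membrane, rose by 0.69 ± 0.12 (adjusted p = 0.00605), from 12.70, 12.73 and 12.58 to 13.30, 13.35 and 13.43. Cnn3, calponin 3, rose by 0.42 ± 0.07 (adjusted p = 0.00489), but its further probe sets ranged from -0.47 to 0.55 and the mean of all was not called (adjusted p = 0.598).

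Of 44 matrix genes 2 rose and 3 fell, with a median of 0.17. Col18a1, the basement membrane collagen that yields endostatin, read 12.76, 12.92 and 12.80 in wild type and 12.00, 11.10 and 11.56 in null animals. It fell by 1.28 ± 0.18 on the log2 scale (adjusted p = 0.0011), with -0.83 in another probe set. Tnc and the protease gene Adamts4 were the other falls, and the rises were Fmod and the metalloprotease inhibitor Timp2. Timp2 rose by 0.72 ± 0.17 (adjusted p = 0.043, and up to 0.239 without 1 array), and a further probe set of Timp2 gave 2.44 (adjusted p over probe sets 6.72e-06). No rise of this list remained without null P49 replicate 2 or 3 or wild-type P49 replicate 1 or 2, and 1 did without null P21 replicate 3 or any wild-type P21 array. There were 4 rises without null P21 replicate 2. The falls came to 1, Col18a1, without null P49 replicate 2 or 3 or wild-type P49 replicate 1 or 2.

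None of 32 endothelial and mural cell markers was called, with a median of 0.02. The tight junction gene Cldn5 had the smallest p at 0.56 ± 0.17 (adjusted p = 0.139).

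The largest falls outside both lists that passed in every fit were those of B3gnt5, Smpx, Col18a1, Cox6b2, Ptprr, Eps8l2, Plxdc1, Kcnip1, Casq2, Krt81, Armh4 and Washc2. They were smaller than the largest rises, from 0.81 to 1.60 in size. Ptprr, a tyrosine phosphatase that acts on MAP kinases, read 14.65, 14.60 and 14.75 in wild type and 14.08, 13.34 and 13.47 in null animals (-1.03 ± 0.18, adjusted p = 0.00404). Eps8l2, an actin-regulating protein, read 12.74, 12.78 and 12.64 in wild type and 12.14, 11.26 and 11.68 in null animals (-1.03 ± 0.19, adjusted p = 0.00724).

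Plxdc1, a membrane receptor, had tight wild-type values of 12.87, 12.98 and 12.96 and null values of 12.13, 11.73 and 11.93, a fall of 1.00 ± 0.11 on the log2 scale (adjusted p = 0.000171). Smpx, a small protein of muscle, read 12.02, 11.92 and 12.10 and then 11.00, 10.21 and 10.49, or -1.45 ± 0.21 (adjusted p = 0.00114). Cox6b2, a subunit isoform of cytochrome c oxidase known from testis, went from 12.18, 11.82 and 12.01 to 11.05, 10.93 and 10.68, or by -1.12 ± 0.16 (adjusted p = 0.00106). In several of these genes null replicate 1 lay nearest to wild type.

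Washc2, a subunit of the WASH complex that sorts cargo on endosomes, read 15.81, 15.88 and 15.91 in wild type and 15.28, 14.98 and 14.93 in null animals. Its fall was 0.81 ± 0.10 on the log2 scale (adjusted p = 0.00031), and its further probe sets gave -0.93, -0.90 and -0.73. Armh4 was at -0.93 ± 0.16 (adjusted p = 0.00397) and the hair keratin gene Krt81 at -0.96 ± 0.18 (adjusted p = 0.00812).

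**Figure D4:**
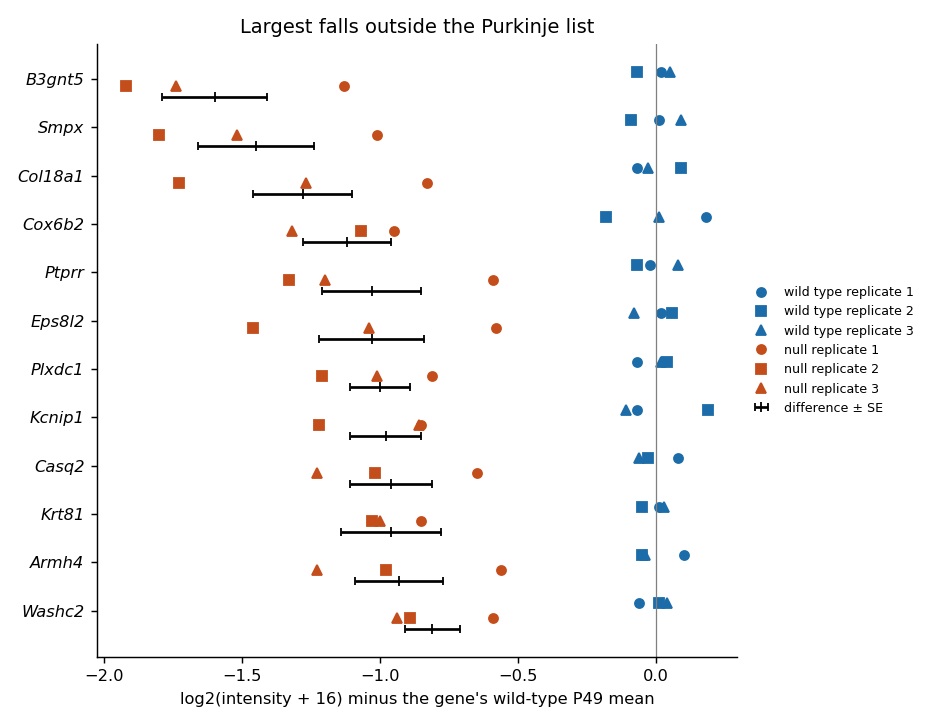
The 12 largest falls outside the microglial and Purkinje cell lists among genes that passed in every fit, drawn as log2(intensity + 16) of each P49 animal relative to the gene's wild-type mean, with the difference ± SE as a black bar. All null values (orange) lie below all wild-type values (blue), with differences from -0.81 for Washc2 to -1.60 for B3gnt5.

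Among the lists of neuronal genes other than the Purkinje cell markers, those of ion channels and of calcium stores held the most falls. The share called was 13.5% for ion channels, 17.8% for calcium stores with its 1 rise counted, and 13.6% for glutamate receptors. Over all genes it was 2.65%. Of the tested members, 2 ion channel genes, 9 calcium genes and 2 glutamate receptor genes are also on the Purkinje cell or microglial list. The shares count these members. Called genes that are also Purkinje cell markers include Cacna1g, Kcnab1, Itpka, Calb1, Atp2a2 and Slc1a6. The lists are therefore not separate from the Purkinje cell list. Of 37 ion channel genes 5 fell and none rose, with a median of -0.15, and 4 passed in every fit. Kcnip1, a calcium-binding subunit of A-type potassium channels, read 12.63, 12.89 and 12.59 in wild type and 11.85, 11.48 and 11.84 in null animals. It fell by 0.98 ± 0.13 on the log2 scale (adjusted p = 0.000751), and further probe sets above the filter gave -0.73 and -0.15, the latter uncalled. Kcnma1, the large-conductance calcium-activated potassium channel, read 13.05, 12.57 and 12.84 in wild type and 12.09, 11.89 and 12.09 in null animals (-0.80 ± 0.14, adjusted p = 0.00606), with -1.08 in another probe set.

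Cacna1g, the T-type calcium channel, and Kcnab1, a potassium channel β-subunit, are on the Purkinje cell list as well. Cacna1g read 13.94, 13.66 and 13.58 in wild type and 12.91, 12.49 and 12.65 in null animals (-1.05 ± 0.16, adjusted p = 0.00206). Kcnab1 was at -0.96 ± 0.15 (adjusted p = 0.0019). The fifth, Cacna2d2, an auxiliary calcium channel subunit, was at -0.61 ± 0.14 (adjusted p = 0.0316, and up to 0.176 without 1 array).

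Of 45 genes of calcium stores and inositol phosphate signalling, 7 fell and 1 rose, with a median of -0.08. The falls that passed in every fit were Itpka, which phosphorylates inositol trisphosphate, Calb1, the calcium buffer calbindin, and Atp2a2, a pump of the endoplasmic reticulum, all on the Purkinje cell list. Atp2a2 fell by 0.38 ± 0.07 on the log2 scale (adjusted p = 0.00533), and with the mean of its probe sets it was not called (adjusted p = 0.117). Inpp4a, a phosphatase of inositol lipids, was at -0.58 ± 0.14 (adjusted p = 0.0396, and up to 0.17 without 1 array). The rise was that of Itpkb, a relative of Itpka, which read 12.43, 12.45 and 12.50 in wild type and 13.10, 13.60 and 13.72 in null animals (1.01 ± 0.23, adjusted p = 0.028). It was lost without null P49 replicate 2 or 3 or any wild-type P49 array. The falls came to 3 without null P49 replicate 2, and to 4 without null P49 replicate 3 or wild-type P49 replicate 2. Casq2, the calcium-binding protein calsequestrin 2, read 12.34, 12.23 and 12.20 in wild type and 11.61, 11.24 and 11.03 in null animals (-0.96 ± 0.15, adjusted p = 0.0019).

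At the synapse, 1 of 43 vesicle genes fell (2.33%, near the 2.65% over all genes), and the median was -0.09. This was Doc2b, a calcium sensor of release that is also on the Purkinje cell list, at -1.04 ± 0.14 (adjusted p = 0.000587). Of 22 genes of glutamate receptors and transport 3 fell, with a median of -0.15, and no fall remained without null P49 replicate 2 or 3 or wild-type P49 replicate 1 or 2. Nsg1, a neuronal endosomal protein that sorts glutamate receptors, was at -0.68 ± 0.13 (adjusted p = 0.0108). A further probe set of Nsg1 gave -0.51 and was not called. Slc1a6, the glutamate transporter of Purkinje cells, read 14.93, 14.86 and 14.77 in wild type and 14.30, 13.78 and 14.00 in null animals (-0.83 ± 0.16, adjusted p = 0.0108). Grik1, a kainate receptor subunit, was at -1.29 ± 0.29 (adjusted p = 0.0278) with a null mean below the level of the filter.

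Among 17 GABA and glycine genes 1 was called (5.88%, against 2.65% over all genes). This was Gabbr1, a subunit of the GABA-B receptor, at -0.46 ± 0.11 (adjusted p = 0.0412). That call was lost in 9 of the 12 fits without 1 array, among them each fit without a P49 array or a wild-type P21 array. Its other probe sets above the filter gave -0.68 and 0.03, neither called, and the mean of its probe sets was not called (adjusted p = 0.893). Of 35 neurofilament and microtubule genes 1 fell (2.86%, near the 2.65% over all genes), the heavy neurofilament gene Nefh, at -0.84 ± 0.17 (adjusted p = 0.0147). It read 13.95, 13.92 and 13.99 in wild type and 12.96, 13.17 and 13.23 in null animals. Its call was lost without null P49 replicate 1 or 2 or any wild-type P49 array (up to 0.0677). Nefh is also the 1 called gene of 3 tested brainstem markers.

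Of 33 axon guidance genes 1 rose and 1 fell (6.06% called, against 2.65% over all genes), with a median of 0.00. Plxnb2, a semaphorin receptor, rose by 0.56 ± 0.10 (adjusted p = 0.00606), with 13.17 the highest wild-type value and 13.57, 13.72 and 13.67 in null animals. Without null P21 replicate 2 there were 2 rises. Sema7a, a membrane-anchored semaphorin, was at -0.68 ± 0.15 (adjusted p = 0.0225), which was lost without null P49 replicate 2 or 3 or any wild-type P49 array.

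Further falls that passed in every fit and were named after their values were seen came from no list. Thy1, a surface protein of neurons, read 15.49, 15.54 and 15.49 in wild type and 14.80, 14.87 and 14.65 in null animals. The fall was 0.73 ± 0.10 on the log2 scale (adjusted p = 0.00075). Septin11 was at -0.81 ± 0.14 (adjusted p = 0.00508), Spns2, which exports sphingosine 1-phosphate from cells, at -0.75 ± 0.11 (adjusted p = 0.00114), and Ywhah, a 14-3-3 protein, at -0.47 ± 0.08 (adjusted p = 0.00489).

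Many Purkinje cell markers were lower as well: 28 of 45 tested genes fell, with a median of -0.71. Their summed intensity over 49 genes was 1758901, 1800123 and 1770468 in wild-type replicates 1 to 3 and 1375758, 1115648 and 1181387 in null replicates 1 to 3, lower in every null array and least so in replicate 1. The falls in this list came to 14 without null P49 replicate 2 or 3 and to 18 without any 1 wild-type P49 array. The part of the Purkinje cell decrease in the other neuronal falls was not tested.

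Other neurons and the myelinating cells had few calls. None of 24 granule neuron markers was called, with a median of -0.01, and none of 17 markers of cerebellar interneurons, with a median of -0.10. Pvalb, parvalbumin, which Purkinje cells and molecular layer interneurons both express, was at -0.35 ± 0.09 (adjusted p = 0.0503). Of 42 myelin and mature oligodendrocyte markers 1 fell (2.38%, near the 2.65% over all genes), with a list median of -0.08. This was Adamts4, at -0.66 ± 0.15 (adjusted p = 0.0278). It was lost without null P49 replicate 2 or 3 or any wild-type P49 array, and the list had 2 falls without null P21 replicate 1 and 3 without null P21 replicate 2. Of 12 oligodendrocyte precursor markers 1 rose (8.33%, against 2.65% over all genes). This was the matrilin gene Matn4, at 1.13 ± 0.21 (adjusted p = 0.00863, and up to 0.0691 without null P49 replicate 3), a call also lost without wild-type P49 replicate 2. None of 3 red blood cell markers or 2 lymphocyte markers tested was called.

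Stress, energy and growth programmes gave few calls. Jun, an immediate early transcription factor, was the 1 rise of 25 such genes (4.0%, against 2.65% over all genes), whose median was 0.14. It read 13.01, 13.08 and 13.21 in wild type and 13.76, 14.11 and 14.08 in null animals, and rose by 0.88 ± 0.11 (adjusted p = 0.000435). A further probe set gave 0.51 and was not called, and without null P21 replicate 2 the list had 2 rises. None of 38 genes of endoplasmic reticulum stress was called (median 0.02), nor of 34 heat shock genes (median -0.12), of which 7 had a positive difference. Hsph1, a large chaperone, was nearest among the latter at -0.51 ± 0.13 (adjusted p = 0.0666).

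None of 61 genes of oxidative phosphorylation was called. Their median was -0.10, and 9 had a positive difference, against 3598 of the 7835 genes tested. Cycs, cytochrome c, had the smallest p, at -0.38 ± 0.14 (adjusted p = 0.242). Of 29 genes of glycolysis and glucose uptake 1 fell (3.45%, against 2.65% over all genes). This was the glucose cotransporter gene Slc5a1, at -1.29 ± 0.27 (adjusted p = 0.0184, and up to 0.109 without 1 array). None remained without null P49 replicate 2 or 3 or any wild-type P49 array, and 2 fell without null P21 replicate 2. None of 29 cell cycle genes (median 0.05), 23 apoptosis genes (median 0.02) or 35 proteasome and ubiquitin genes (median 0.05) was called. Bcl2l11, which encodes the cell death protein BIM, was nearest among the apoptosis genes at 0.76 ± 0.22 (adjusted p = 0.107).

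The P21 differences of the genes called at P49 come from other animals. Since these genes were chosen by their P49 values, a smaller size at P21 is no result in itself. Of the 86 rises outside both lists, 75 had a positive difference at P21, where the median was 0.24 against 0.92 at P49. Without the 3 P21 arrays that went against their sex label, 69 were positive and the median was 0.13. Of the 61 falls, 43 had a negative difference at P21, with a median of -0.10 against -0.75 at P49, and without the 3 arrays 35 were negative, with a median of -0.02. Called at P21 were 5 genes of all tested, of which 1 was among the 86 and 0 among the 61 (limma). At an unadjusted p under 0.05 there were 790 genes at P21 and 887 at P49.

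In the direct test of the change with age, the difference was higher at P49 than at P21 in 27 genes (0.345%) and lower in 16 (0.204%), and 42 of these 43 were also called at P49. Of the 43, 23 were outside both lists, and 17 passed in every fit. Th had differences of -0.42 ± 0.38 at P21 and 2.88 ± 0.38 at P49, and the change of 3.30 ± 0.53 was called (adjusted p = 0.0111, and 0.0561 without null P49 replicate 3). Npc2 went from 0.00 ± 0.13 to 0.98 ± 0.13 (adjusted p of the change 0.0223, and up to 0.0887 without 1 array), and Cd9 from -0.18 ± 0.12 to 0.96 ± 0.12 (adjusted p = 0.00717). Inpp4a was the other way round at the ages, at 0.72 ± 0.14 at P21 and -0.58 ± 0.14 at P49 (adjusted p of the change 0.00717). Ifitm3 was at 1.04 ± 0.19 at P21 and 1.12 ± 0.19 at P49, a change of 0.07 ± 0.27, and Lgals9 changed by 0.27 ± 0.31 from 0.91 ± 0.22. Higher changes with age numbered 42 without null P21 replicate 2, 15 without null P49 replicate 3, 17 without wild-type P49 replicate 1, also 17 when replicate 3 of the P21 wild types was dropped, and 16 without wild-type P49 replicate 2. Lower ones numbered 29 without null P49 replicate 1, 24 without null P21 replicate 2, 9 without wild-type P21 replicate 2, and 3 to 5 without null P49 replicate 2 or 3, wild-type P21 replicate 1 or 3, or any wild-type P49 array.

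**Figure D5:**
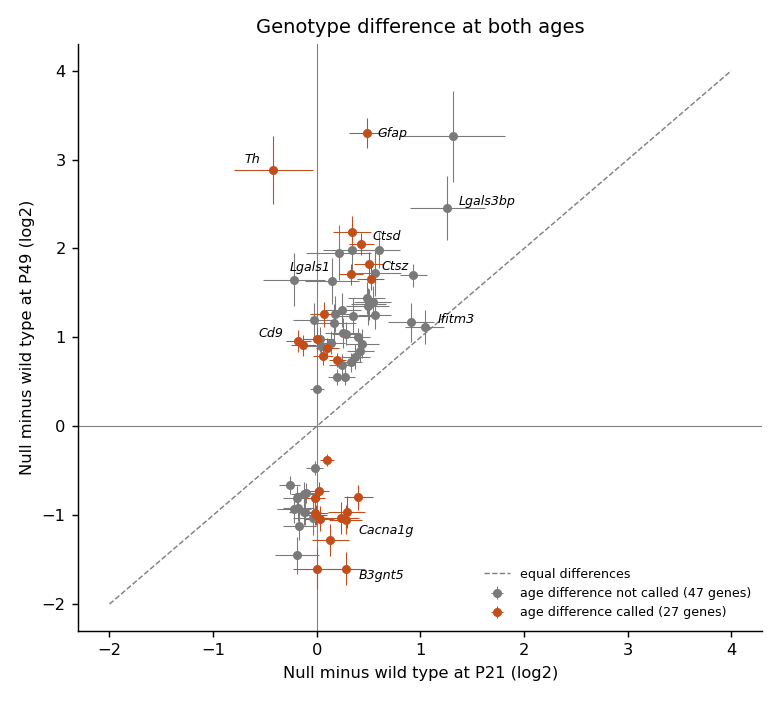
The null minus wild-type difference at P21 (horizontal) and P49 (vertical), both in log2 with bars of ± SE, for the 74 named genes that passed in every fit at P49, the microglial and Purkinje cell members included. Orange points are the 27 genes whose change with age was called, and the dashed line marks equal differences; Ifitm3 lies close to it, while Gfap, Th and Ctsd lie far above.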

How the data were processed

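Total RNA from cerebellum was measured on 12 Affymetrix arrays, of which the 6 at P49 are compared. The authors deposited 1 intensity per probe set on a linear scale; the sources used here name no method of summarising or scaling them. On each array the mean trimmed by 2% at both ends came to 5002. Of 22690 probe sets, 64 are controls and 20380 others have 1 symbol. Depth does not apply to arrays; 3 animals per group limit the precision. Intensities were taken as log2(intensity + 16), quantile normalised and filtered at the 40th percentile (intensity 959). The brightest probe set stood for a gene, giving 7835 tested of 12393. Contrasts of 4 group means were tested in limma 3.58.1 (R 4.3.3) with eBayes and a trend, two-sided. The script was tested on simulated data. Named genes are the 12 largest rises and 12 largest falls outside both lists that passed in every fit, and up to 4 such members per list, or up to 2 of smallest p where none did; a few called members and genes of no list were added after their values were seen. Members and lists were chosen with earlier results of these data known. Alternatives covered scaling, pseudocount, filter, probe sets, trend, replicate block and leaving out arrays. Detection calls were not used here. The counts of 1 list are not reported here.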

Additional observations from a re-analysis of the deposited data

Results flagged for a closer look

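These results are given because the genotype difference at P49 was tested against that at P21 and differed. Over all genes the difference was higher at P49 in 27 and lower in 16. Values below are the P49 difference minus the P21 difference, in log2, and each was called in limma with all arrays. The change of Gfap was 2.83, of Ctss 1.85, of Ctsd 1.63, of Lgals1 1.38, of Ctsz 1.32, of Cd9 1.14 and of Grn 1.13. B3gnt5 changed by -1.87, Inpp4a by -1.30 and Plxdc1 by -1.0. These 10 also held in each of the 12 fits without 1 array. Inpp4a went from 0.72 ± 0.14 at P21 to -0.58 ± 0.14 at P49, opposite directions at the 2 ages.

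The others were lost in at least 1 such fit. Th changed by 3.30 and was lost without null P49 replicate 3 (adjusted p = 0.0561 in limma). Fabp5 changed by 1.03 and was lost without wild-type P49 replicate 2 (adjusted p = 0.0518 in limma). The rises that changed and were lost in more fits were Hexa (1.18), Npc2 (0.98), Jun (0.79), S100a1 (0.73) and Ctsb (0.56). The falls of this kind were Itpka (-1.61), Col18a1 (-1.41), Cacna1g (-1.33), Ptprr (-1.26), Krt81 (-1.25), Kcnma1 (-1.20), Doc2b (-1.08), Kcnip1 (-0.96), Washc2 (-0.79), Thy1 (-0.75) and Atp2a2 (-0.48). Without the 3 P21 arrays that went against their sex label, the changes of Fabp5, Jun and S100a1 were not called. Nor were those of Itpka, Col18a1, Cacna1g, Krt81, Kcnma1, Kcnip1, Thy1 and Atp2a2. Over these genes the adjusted p in limma ran from 0.0531 for Fabp5 to 0.163 for Jun. The changes of Th, Hexa, Npc2, Ctsb, Ptprr, Doc2b and Washc2 were called in that fit.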

How the results depend on the processing

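Genes called higher and lower at P49 numbered 119 and 89. Fitted on the P49 arrays alone, but normalised and filtered over all 12 arrays, they were 233 and 167. Without the 3 P21 arrays whose sex-linked genes went against the label, they were 205 and 145. With the filter at the 60th percentile 70 rose. Fits without 1 array gave 71 to 191 rises and 35 to 131 falls. Of the changes with age, 27 higher and 16 lower, the higher ones were 17 with the filter on wild-type P49 arrays, and the lower ones 10 with no filter and 8 with no trend. Without 1 array these were 15 to 42 higher and 3 to 29 lower, and without the 3 P21 arrays 39 higher and 13 lower. The cause of these shifts was not tested. With the replicate number as a block, 113 genes rose and 76 fell at P49, and 26 and 10 changed with age. The deviations of same-numbered P49 arrays correlated at 0.1889, 0.106 and 0.0761. Those of differently numbered arrays correlated at -0.1369 to 0.0254, below all the same-numbered ones. The main fit did not take the numbers as pairs, and the source of this pattern was not tested. The named genes that passed in every fit kept their call in 855 of 861 tests under the other settings, counting only settings in which the gene was tested. The other 6 were Man2b1, Id2, Ntrk2, Cnn3 and Atp2a2 with the mean of probe sets, and Atp2a2 with no trend. Called named genes that did not pass in every fit lost their call in 45 of 404 such tests (19 genes), and uncalled ones were called in 51 of 920 tests over all settings. Cases in which the filter of a setting removed a gene are in none of these totals. The sign turned for 2 uncalled genes. Slc17a6, at 0.35 with all arrays, was -0.35 to 1.03 over fits without 1 array and -0.35 without null P49 replicate 2. Ighm, at -0.09, was -0.16 to 0.04 and turned without wild-type P49 replicate 3. Dim genes were not checked against background.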

Other observations

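The null P49 animals differed among themselves in how far they lay from wild type. Over the 208 genes called at P49, null replicate 1 was the null array nearest to the wild-type mean in 171, replicate 2 in 19 and replicate 3 in 18. The median distance in the direction of the call was 0.74 for replicate 1, 1.01 for replicate 2 and 1.03 for replicate 3. Outside the microglial and Purkinje cell lists the same was seen in 122 of 147 genes for replicate 1, 71 of 86 rises and 51 of 61 falls. Replicate 1 is the animal labelled male, with Xist at 15.63, and it had the highest choroid plexus sum. With 1 such animal, no test of this difference was made.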
